A study of Mus musculus with 6 samples.

Results

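The collagen genes of mouse aorta are described here: the 44 protein-coding genes, of 35275 genes in the table, whose symbol reads Col, a number, the letter a and a number, as in Col1a1. By structure they comprise 11 fibrillar genes, 9 network genes, 9 FACIT genes (fibril-associated collagens with interrupted triple helices), 6 beaded filament genes, 4 transmembrane genes, 2 multiplexin genes, 1 anchoring fibril gene and 2 others. Whole aorta was sequenced as RNA in 6 libraries, 3 labelled Wild-type and 3 labelled EC-Jag1KO, the latter deficient in Jagged1, a Notch ligand, in endothelial cells. The series title places the loss in mature endothelium and concerns the smooth muscle of the vessel. For the Cre driver, strain, age, treatment and any allele carried by both genotypes, the labels state nothing, nor whether each library is from its own animal. P-values therefore measure the spread between these samples, part of which may be technical. Sex-linked genes, given below, differ within each genotype, so its 3 libraries are not all from 1 animal.

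Collagens are made of chains whose glycine-rich repeats wind into a triple helix of the same or different chains. In the aorta, fibrils of types I, III and V carry load in the media and adventitia, and type IV networks form the basement membranes under the endothelium and around each smooth muscle cell. Beaded filaments of type VI lie between these layers, FACIT chains decorate fibrils, and types XV and XVIII are basement membrane collagens with heparan sulfate or chondroitin sulfate chains. Smooth muscle cells and fibroblasts are the main sources of these chains in the wall.

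Values are FPKM (fragments in a gene divided by its length in kilobases and by the size of the library), so levels can be compared between genes per length. Libraries held 19889910 to 25914325 reads in genes. Jag1, the targeted gene, stood at 9.86, 10.6 and 16.9 FPKM in wild-type and at 13.5, 9.42 and 19.6 FPKM in EC-Jag1KO libraries 1 to 3. Jag1 is not made by endothelium alone, and the value covers the whole gene, so it does not check the deletion. Xist was at 26.9 FPKM in wild-type replicate 3 and 40.7 FPKM in EC-Jag1KO replicate 3 and at no more than 0.0738 FPKM in the other 4 libraries, where the Y-linked genes were present, so each genotype mixes both sexes in the same proportion. All 6 contractile smooth muscle markers were present, from Des, at 22.6 FPKM in its lowest library, to Acta2, at 7672 FPKM in its highest. Their summed level was 13704 to 14388 FPKM in wild-type and 11422 to 13631 FPKM in EC-Jag1KO libraries, without overlap, with 5 of the 6 lower on average. The 6 fibroblast markers summed to 1069 to 1334 and 1012 to 1303 FPKM, which overlap, with 4 of the 6 higher on average. The 6 endothelial markers summed to 244 to 355 and 277 to 367 FPKM, which overlap, with 5 of the 6 higher on average. Adipocyte markers varied widely, with sums of 217 to 1217 and 409 to 955 FPKM. Cardiac muscle markers summed to 33.5 FPKM in EC-Jag1KO replicate 2 and to 5.21 to 11.8 FPKM in the other libraries. In bulk tissue, fewer cells of a type and less RNA per cell cannot be told apart.

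Of the 44 genes, 27 averaged 1 FPKM or more across the libraries and were tested, and 17 averaged less. The filter separated Col11a2 (mean 1.11 FPKM) from Col19a1 (0.517 FPKM). The 8 highest genes, each with a mean of at least 100 FPKM, were Col1a2, Col3a1, Col18a1, Col1a1, Col4a1, Col6a2, Col6a1 and Col4a2. Together they made up 79.2% to 82.6% of the summed collagen FPKM in each library. Col1a2 ranked 66 among all protein-coding genes by mean FPKM and Col4a2 ranked 362. The whole family took 1.35% to 1.60% of the reads in wild-type and 1.45% to 1.72% in EC-Jag1KO libraries, ranges that overlap. The levels spread over more than 2 orders of magnitude within the fibrillar, network and FACIT classes alike when the 17 genes under the filter are counted.

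**Figure D1:**
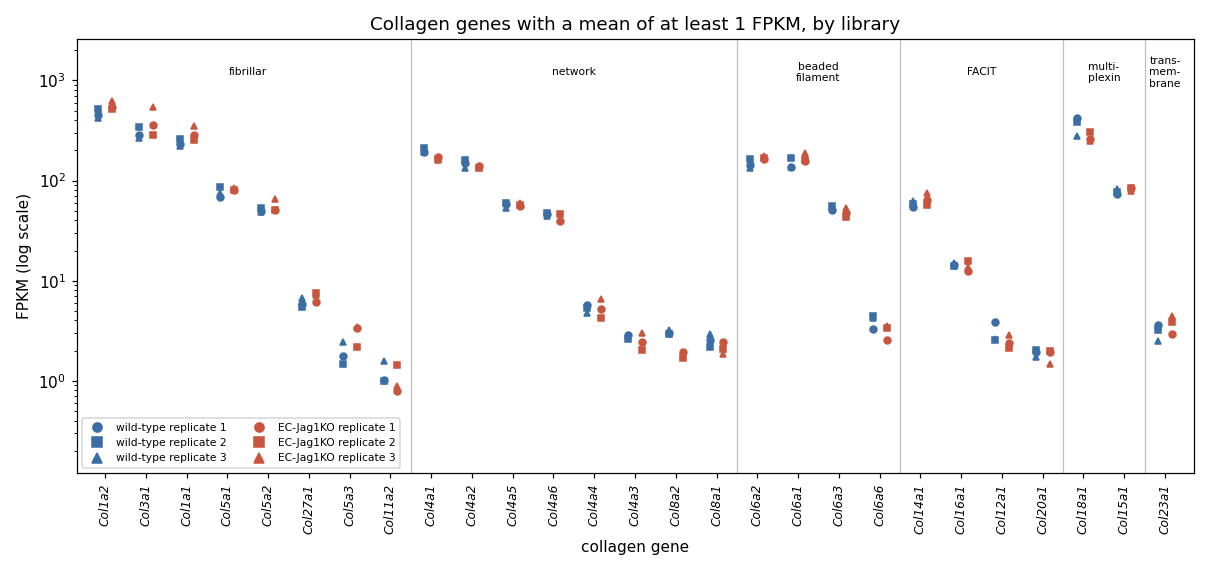
Level of each of the 27 tested collagen genes in every library, in FPKM on a log axis, grouped by class, with wild-type libraries in blue and EC-Jag1KO libraries in red. In most genes the colours overlap; in Col8a2 and Col4a1 all 3 EC-Jag1KO libraries lie below all 3 wild-type libraries.

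No collagen gene passed the test between the genotypes. With limma on log2(FPKM + 1), 0 of 27 collagen genes and 0 of 12165 genes in all (0%) had an adjusted p under 0.05, and the smallest adjusted p among collagen genes was 0.395, for Col8a2. Before adjustment, 3 collagen genes had p under 0.05, or 11.1% of those tested, against 7.71% of all genes (938). One of them, Col5a3, lay higher in EC-Jag1KO, where 4.25% of all genes did, and 2, Col8a2 and Col4a1, lay lower, where 3.46% did. In 2 of the 27 collagen genes (7.41%) the groups did not overlap, against 13.6% of all genes. Both lay lower, as did 6.73% of all genes without overlap, and none lay higher, against 6.84%. In these terms the family as a whole lies near the background. Of the 27, 13 lay higher and 14 lower in EC-Jag1KO, with a median log2 fold change of -0.0011, beside -0.00022 over all genes tested.

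Fibrillar chains lay mostly higher in EC-Jag1KO aorta and network chains mostly lower, without any chain passing the adjusted threshold. Of 8 tested fibrillar genes 7 lay higher, with a median log2 fold change of 0.23, and of 8 tested network genes 7 lay lower, with a median of -0.12. The lower network genes include Col4a4, which differed by only -0.0011. Its mean FPKM was 5.32 in EC-Jag1KO against 5.27 in wild-type. In the same fit 50% of all genes lay higher. The fibrillar median was 0.13 without EC-Jag1KO replicate 3 and 0.11 without both Xist-high libraries. The fibrillar split was 7 to 1 or 8 to 0 under every alternative tried, and the network split ranged from 6 to 2 to 8 to 0. Dropping the filter or the trend, or adding sex or the replicate block, leaves the fold changes as they are. Those fits could not move the splits. Without both Xist-high libraries the fibrillar members changed places, with Col5a2 lower (-0.021) and Col11a2 higher (0.053). The genes of a class are not replicates and share the libraries, so these counts are given as a description.

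**Figure D2:**
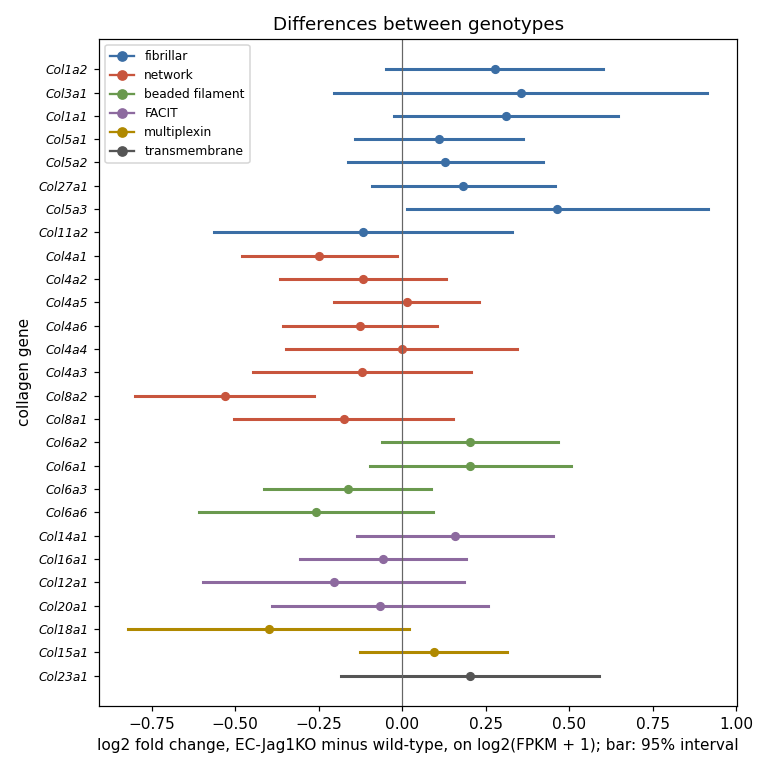
Log2 fold change of each tested collagen gene, EC-Jag1KO minus wild-type on the log2(FPKM + 1) scale, with its 95% interval from limma as a bar, coloured by class. The intervals of Col8a2 and Col4a1 lie below 0 and that of Col5a3 lies above 0, all before adjustment; those of the other 24 genes include 0.

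Type I collagen, the heterotrimer of Col1a1 and Col1a2 chains that gives fibrils their tensile strength, was the most abundant. Col1a2 (chromosome 6, plus strand, 4504814 to 4541543 in mm10) stood at 447, 523 and 423 FPKM in wild-type and at 547, 516 and 625 FPKM in EC-Jag1KO libraries 1 to 3. Only EC-Jag1KO replicate 2 lay below the highest wild-type library. The difference on the log2 scale was 0.28 (95% interval -0.047 to 0.60), with a limma adjusted p of 0.684. Col1a1 (chromosome 11, plus strand, 94936224 to 94953042) stood at 232, 257 and 223 FPKM against 287, 255 and 348 FPKM. Again EC-Jag1KO replicate 2 lay within the wild-type range and replicate 3 was the highest library. Its log2 fold change was 0.31 (-0.025 to 0.65), with a limma adjusted p of 0.666. Without both Xist-high libraries the log2 fold change was 0.14 for Col1a2 and 0.15 for Col1a1.

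Col3a1, the homotrimeric collagen of compliant vessels that forms mixed fibrils with type I, varied more between EC-Jag1KO libraries than any other collagen gene with a mean above 50 FPKM. It measured 285, 344 and 269 FPKM in wild-type, a mean of 299 ± 40 (SD, n = 3), and at 363, 282 and 540.5 FPKM in EC-Jag1KO libraries 1 to 3, a mean of 395 ± 132 (SD, n = 3). EC-Jag1KO replicate 3 lay above all other libraries, and EC-Jag1KO replicate 2 lay within the wild-type range. On the log2 scale it lay 0.35 higher in EC-Jag1KO (95% interval -0.20 to 0.91), at a limma adjusted p of 0.779. Without EC-Jag1KO replicate 3 the difference was 0.10, without EC-Jag1KO replicate 2 it was 0.57, and without both Xist-high libraries it was 0.029. In EC-Jag1KO replicate 3 the summed smooth muscle markers were the lowest of all 6 libraries (11422 FPKM), and so was the fibroblast sum (1012 FPKM). The fibroblast markers did not move together there, since Dpt, Pi16 and Clec3b had their lowest value in that library and Pdgfra (21.7 FPKM) and Lum (76.2 FPKM) their highest. The part of cell composition in the Col3a1 level was not tested.

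The stretch before Col3a1 is shown because this gene has the largest log2 fold change among collagen genes above 50 FPKM with a higher EC-Jag1KO mean, and is one of 5 collagen genes with a match to the TATA box letters in this window. It covers chr1:45311288-45311537 on the plus strand of GRCm38.p6, from RefSeq, 5′ to 3′ and ending just before the gene's first base, with the match to TATAAA in capitals.
Col3a1: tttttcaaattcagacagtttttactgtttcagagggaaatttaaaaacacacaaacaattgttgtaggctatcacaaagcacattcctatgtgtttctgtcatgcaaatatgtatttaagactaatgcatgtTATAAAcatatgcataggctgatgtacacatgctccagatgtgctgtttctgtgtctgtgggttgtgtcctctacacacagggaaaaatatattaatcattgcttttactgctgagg
The window is 35.2% G and C, and the match begins 117 bases before the annotated start.

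Type V chains, minor components that set the diameter of type I fibrils, divided by abundance. Col5a1 stood at 69.1, 85.5 and 74.5 FPKM in wild-type and at 81.2, 80.9 and 84.6 FPKM in EC-Jag1KO libraries, a log2 fold change of 0.11 (-0.14 to 0.36). Col5a2 stood at 50.2, 52.6 and 48.5 FPKM against 50.9, 50.3 and 65.6 FPKM, a log2 fold change of 0.13 (-0.16 to 0.42). Outside EC-Jag1KO replicate 3, every Col5a2 value lay between 48.5 and 52.6 FPKM. Col5a2 lies on chromosome 1 with Col3a1, and both had their highest value in EC-Jag1KO replicate 3. So did genes on other chromosomes, among them Col1a1, Col1a2, Col6a1, Col6a2 and Col14a1.

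Col5a3, the third type V chain, was far less abundant and was the fibrillar gene of smallest p. It stood at 1.76, 1.46 and 2.43 FPKM in wild-type, on 224 to 383 reads, and at 3.38, 2.15 and 3.44 FPKM in EC-Jag1KO libraries, on 262 to 545 reads. EC-Jag1KO replicate 2 lay below wild-type replicate 3, so the groups overlap. The log2 fold change was 0.46 on the log2(FPKM + 1) scale (0.013 to 0.92), which understates the change at this level, and 0.64 with a pseudocount of 0.1. Limma's unadjusted p was 0.0450 and its adjusted p 0.635. With each library left out in turn the unadjusted p ran from 0.0115 (without EC-Jag1KO replicate 2) to 0.137 (without wild-type replicate 2), and it was over 0.05 in 4 of the 6 fits.

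Of the remaining fibrillar genes, Col27a1, which is known from cartilage, stood at 5.44 to 6.65 FPKM in wild-type and 6.10 to 7.49 FPKM in EC-Jag1KO libraries. Col11a2 was at 0.993 to 1.58 and 0.785 to 1.42 FPKM. Col2a1, the main fibrillar collagen of cartilage, had 0 to 14 reads per library, Col11a1 1 to 23 and Col24a1 0 to 7. Of 6 cartilage markers, Cnmd had no reads in any library, and the 6 summed to 2.40 to 7.87 FPKM in wild-type and 3.52 to 3.89 FPKM in EC-Jag1KO libraries.

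Type IV collagen, the network of basement membranes, is encoded by 3 pairs of genes that lie head to head and are transcribed away from each other. The pairs differ in how close their starts lie, as the table's mm10 coordinates give them. Col4a1 and Col4a2 on chromosome 8 overlap by 22 bases, Col4a4 and Col4a3 on chromosome 1 are 71 bases apart, and Col4a6 and Col4a5 on chromosome X are 1308 bases apart. The overlap at chr8:11312805-11312826 and the gap at chr1:82586850-82586920 are printed on the plus strand of GRCm38.p6, from RefSeq, to show the sequence each pair shares, with a match to GGGCGG in capitals.
Col4a1 and Col4a2: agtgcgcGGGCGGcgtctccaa
Col4a4 and Col4a3: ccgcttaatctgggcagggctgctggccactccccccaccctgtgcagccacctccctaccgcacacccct
The first stretch is 72.7% G and C and the second 69.0%, and the second holds none of the searched letters (GC, TATA and CCAAT boxes) on either strand.

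The chains of a pair stood closer to each other than the pairs did. The ratio of Col4a1 to Col4a2 was 1.19 to 1.44 over the 6 libraries, that of Col4a5 to Col4a6 1.21 to 1.48 and that of Col4a4 to Col4a3 1.65 to 2.15. Col4a1 averaged 182 FPKM over the 6 libraries, and Col4a4 did not exceed 6.51 FPKM in any. Col4a5 and Col4a6, whose chains join in the smooth muscle basement membrane, lay between them, at 53.1 to 60.2 and 39.6 to 47.1 FPKM.

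Col4a1, which pairs with Col4a2 in the ubiquitous type IV trimer, was lower in all 3 EC-Jag1KO libraries than in any wild-type library. It stood at 191, 212 and 192 FPKM in wild-type (198 ± 12, SD, n = 3) and at 172, 166 and 162 FPKM in EC-Jag1KO libraries (167 ± 5.5, SD, n = 3). The difference on the log2 scale was -0.25 (95% interval -0.48 to -0.014), with a limma unadjusted p of 0.0402 and an adjusted p of 0.629. With each library left out in turn the log2 fold change ran from -0.20 to -0.27, and the unadjusted p was over 0.05 each time, from 0.0523 to 0.144. Summed smooth muscle markers also did not overlap between the genotypes, in the same direction, and their part in the Col4a1 level was not tested.

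Its partner Col4a2 stood at 151, 159 and 133 FPKM in wild-type and at 139, 132 and 136 FPKM in EC-Jag1KO libraries. Wild-type replicate 3 lay among the EC-Jag1KO libraries, so the groups overlap. The log2 fold change was -0.12 (-0.37 to 0.13), with a limma adjusted p of 0.844. Col4a5 stood at 57.9, 60.2 and 53.1 FPKM against 55.9, 57.5 and 59.2 FPKM, with a log2 fold change of 0.013 (-0.20 to 0.23). This was the narrowest interval among the 27 genes. Col4a6, Col4a3 and Col4a4 differed by -0.13, -0.12 and -0.0011 on the log2 scale, and their intervals include 0.

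Col8a2 was the collagen gene of smallest p. Type VIII collagen forms hexagonal lattices, is made by vascular cells and is the collagen of the corneal Descemet membrane. Col8a2 (chromosome 4, plus strand, 126286793 to 126314330) stood at 2.99, 2.95 and 3.20 FPKM in wild-type, on 306, 321 and 356 reads. In EC-Jag1KO libraries it stood at 1.94, 1.67 and 1.79 FPKM, on 184, 144 and 201 reads. The 3 values of each genotype lay close together, at 3.04 ± 0.13 and 1.80 ± 0.13 FPKM (SD, n = 3 each), and the groups lay well apart. On the log2(FPKM + 1) scale the difference was -0.53 (95% interval -0.80 to -0.26), and it was -0.73 with a pseudocount of 0.1. Limma's unadjusted p was 0.0021 and the adjusted p over all genes 0.395. With each library left out in turn the log2 fold change was -0.50 to -0.57 and the unadjusted p 0.0050 to 0.0092, with adjusted p from 0.325 to 0.922.

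Col8a1, which encodes the other type VIII chain, stood at 2.54, 2.16 and 2.90 FPKM against 2.45, 2.08 and 1.86 FPKM. The groups overlap, and its log2 fold change of -0.18 had an interval from -0.50 to 0.15. Col10a1, the collagen of hypertrophic cartilage, had 0 to 10 reads per library and lies within Nt5dc1 on the opposite strand.

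The windows before Col8a2 and Col5a3 are shown because these are the lower and the higher gene with the largest log2 fold changes among the 27. Both are from RefSeq on GRCm38.p6 and end just before the gene's first base, at chr4:126286544-126286792 on the plus strand and chr9:20815068-20815317 on the minus strand. Capitals mark GGGCGG (a GC box) and CCAAT, each on either strand.
Col8a2: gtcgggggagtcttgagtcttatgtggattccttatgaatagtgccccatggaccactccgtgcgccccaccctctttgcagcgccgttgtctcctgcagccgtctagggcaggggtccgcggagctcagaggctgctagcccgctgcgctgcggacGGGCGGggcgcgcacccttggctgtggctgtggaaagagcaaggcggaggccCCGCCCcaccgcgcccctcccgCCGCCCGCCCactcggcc
Col5a3: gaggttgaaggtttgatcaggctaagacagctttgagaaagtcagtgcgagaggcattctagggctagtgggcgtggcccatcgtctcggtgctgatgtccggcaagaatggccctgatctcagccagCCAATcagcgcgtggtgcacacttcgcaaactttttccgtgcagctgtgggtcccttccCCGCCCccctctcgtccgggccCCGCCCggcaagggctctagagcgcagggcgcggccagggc
The Col8a2 window is 69.9% G and C and the Col5a3 window 62.8%, against 35.2% before Col3a1. In Col8a2 matches to the GC box begin 92, 40, 18 and 14 bases before the gene, the last pair overlapping. In Col5a3 a CCAAT match begins at 122 bases and GC boxes at 63 and 41 bases. Across 35 collagen genes with a promoter in the RefSeq table, the 250 bases before the start held GGGCGG in 21 genes, CCAAT in 13 and TATAAA in 5, counting both strands. Per promoter these shares were 57.9%, 34.2% and 13.2% of 38 collagen promoters, beside 32.7%, 33.8% and 12.4% of all 32851 promoters in the table. A match is a run of letters and not a binding site.

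The share of each class in the collagen pool was also taken. It is made from the same FPKM values as the fold changes, so it is not a second result. Fibrillar genes held 44.3%, 47.1% and 46.4% of the summed collagen FPKM in wild-type and 52.4%, 48.6% and 57.1% in EC-Jag1KO libraries. All 3 EC-Jag1KO shares were above all 3 wild-type shares. Network genes held 18.7%, 18.2% and 19.3% in wild-type and 16.4%, 16.7% and 14.0% in EC-Jag1KO libraries, again without overlap. Among single genes, 13.6% of all those tested had groups without overlap. Multiplexin genes held 16.0% to 20.1% against 11.1% to 16.0%, beaded filament genes 13.6% to 14.5% against 14.3% to 15.3%, and FACIT genes 2.86% to 3.65% against 3.18% to 3.22%. Shares sum to the whole, so a higher share of one class lowers the others, and the shares rest mainly on the few abundant genes. In summed FPKM, network genes stood at 436 to 491 against 410 to 420, while fibrillar genes overlapped at 1050 to 1271 against 1195 to 1675.

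**Figure D3:**
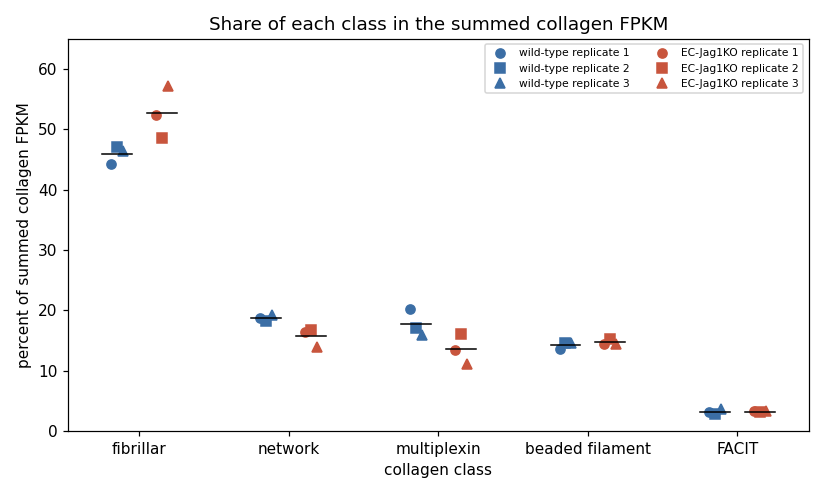
Percent of the summed collagen FPKM held by each class in every library, with the mean of each genotype as a black line; wild-type is blue and EC-Jag1KO red. Fibrillar shares are higher in every EC-Jag1KO library (48.6% to 57.1%) than in wild-type (44.3% to 47.1%), and network shares are lower.

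Type VI chains, which assemble into beaded filaments around cells, went both ways. Col6a2 stood at 144, 164 and 134 FPKM in wild-type and at 163, 168 and 177 FPKM in EC-Jag1KO libraries, a log2 fold change of 0.20 (-0.061 to 0.47). Col6a1, next to it on chromosome 10, stood at 136, 166 and 136 FPKM against 157, 161 and 187 FPKM, also 0.20 (-0.097 to 0.50). In both genes wild-type replicate 2 lay among the EC-Jag1KO libraries. Without both Xist-high libraries the log2 fold change was 0.10 for Col6a2 and 0.077 for Col6a1. Col6a3, the long chain that completes the trimer, stood at 51.1, 55.7 and 53.95 FPKM against 47.6, 42.9 and 53.1 FPKM, a log2 fold change of -0.16 (-0.41 to 0.087). Col6a6, which has a similar build to Col6a3, stood at 3.26, 4.44 and 4.25 FPKM against 2.58, 3.40 and 3.52 FPKM, a log2 fold change of -0.26 (-0.61 to 0.092). The limma adjusted p-values of these 4 genes were 0.735 to 0.773.

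Multiplexins were represented by Col18a1, whose C-terminal fragment is endostatin, and Col15a1. Col18a1 (chromosome 10, minus strand, 77052178 to 77166548) stood at 423, 385 and 280.0 FPKM in wild-type and at 258, 309 and 248 FPKM in EC-Jag1KO libraries. Wild-type replicate 3 lay below EC-Jag1KO replicate 2, so the groups overlap. The log2 difference was -0.40 (-0.82 to 0.021), the largest among collagen genes above 50 FPKM, with a limma unadjusted p of 0.0595 and an adjusted p of 0.654. With each library left out in turn it ran from -0.28 (limma unadjusted p 0.201, without wild-type replicate 1) to -0.57 (0.0085, without wild-type replicate 3). In the Xist-low libraries alone it was -0.51 with an unadjusted p of 0.0110, and in the Xist-high libraries, 1 of each genotype, the values were 280.0 and 248 FPKM. Slc19a1, at a mean of 4.53 FPKM, overlaps Col18a1 on the opposite strand. Col15a1 stood at 73.5, 76.0 and 81.4 FPKM against 84.2, 84.2 and 78.1 FPKM, with a log2 fold change of 0.094 (-0.12 to 0.31).

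Of 9 FACIT genes 4 were tested, 1 lay higher and 3 lower in EC-Jag1KO, and none had a limma unadjusted p under 0.05. Col14a1, a FACIT chain on type I fibrils, stood at 54.6, 57.7 and 62.4 FPKM in wild-type and at 64.1, 56.8 and 75.2 FPKM in EC-Jag1KO libraries. EC-Jag1KO replicate 3 was again the highest, and the log2 fold change was 0.16 (-0.14 to 0.45). Col12a1 stood at 3.89, 2.54 and 2.64 FPKM against 2.38, 2.13 and 2.88 FPKM, a log2 fold change of -0.21 (-0.59 to 0.18), which was -0.057 without wild-type replicate 1. Col16a1 was at 14.1 to 15.2 and 12.5 to 15.7 FPKM, and Col20a1 at 1.74 to 2.04 and 1.46 to 1.98 FPKM. Of the transmembrane collagens only Col23a1 was tested. It stood at 3.58, 3.18 and 2.48 FPKM against 2.91, 3.82 and 4.39 FPKM, a log2 fold change of 0.20 (-0.18 to 0.59).

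For 4 pairs of chains the ratio of levels was taken within each library. The ratio of Col1a1 to Col1a2 FPKM was 0.520, 0.492 and 0.528 in wild-type and 0.525, 0.494 and 0.558 in EC-Jag1KO libraries. Per length, therefore, Col1a2 reads exceeded Col1a1 reads in all 6 libraries, although the protein trimer holds more Col1a1 than Col1a2 chains. The ratio of Col6a1 to Col6a2 was 0.941 to 1.01 in wild-type and 0.956 to 1.05 in EC-Jag1KO libraries. Col3a1 to Col1a1 was 1.20 to 1.34 in wild-type and 1.11 to 1.55 in EC-Jag1KO libraries, a wider range on both sides.

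The ratio of Col4a1 to Col4a2 was the one whose groups did not overlap. It was 1.26, 1.33 and 1.44 in wild-type and 1.24, 1.25 and 1.19 in EC-Jag1KO libraries. The difference in log2 ratio was -0.13, and the exact 2-sided permutation test gave p = 0.1, the smallest that 3 against 3 can give. Adjusted over the 4 ratios it was 0.4. The ratio is made from the same Col4a1 values that did not overlap between the genotypes, so it is not a second result. The other 3 ratios had exact permutation p of 0.6 to 1. Antisense genes also overlap this pair, Gm15418 within Col4a1 at a mean of 1.41 FPKM and Gm15419 within Col4a2 at 0.0987 FPKM.

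**Figure D4:**
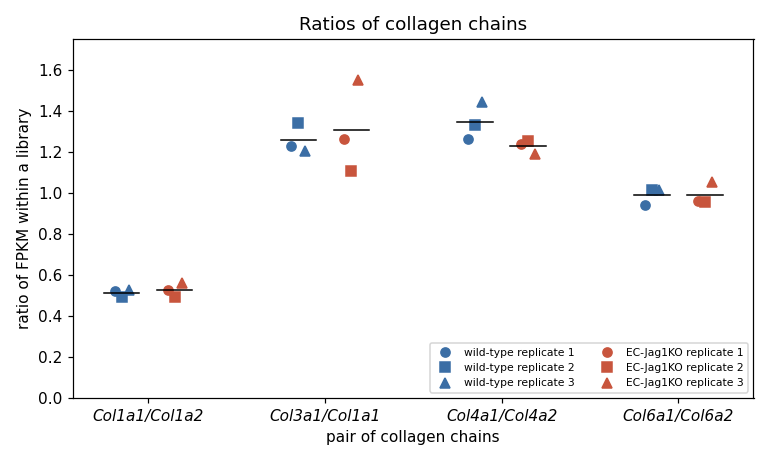
Ratio of FPKM between 2 collagen chains within each library, for 4 pairs, with the mean of each genotype as a black line; wild-type is blue and EC-Jag1KO red. The Col1a1 to Col1a2 ratio stays between 0.492 and 0.558, and the Col4a1 to Col4a2 ratio is lower in every EC-Jag1KO library (1.19 to 1.25) than in wild-type (1.26 to 1.44).

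Among the 17 collagen genes under 1 FPKM, the groups did not overlap in 3. Of 10657 genes of any type with some reads and a mean under 1 FPKM, 7.96% show this, and reads per gene were not matched. The 3 collagen genes were chosen for this after their values were seen. Col22a1, a FACIT chain of tissue junctions such as that between muscle and tendon, had 23, 22 and 18 reads in wild-type and 47, 52 and 116 reads in EC-Jag1KO libraries. That is 0.0795 to 0.110 FPKM against 0.244 to 0.508 FPKM. Col13a1, a transmembrane collagen of neuromuscular junctions and focal adhesions, had 2, 4 and 10 reads against 20, 14 and 12 reads. Col6a5 had 81, 30 and 36 reads against 8, 7 and 28 reads, so its lowest wild-type and highest EC-Jag1KO libraries differed by 2 reads. Without the filter limma gave these 3 genes unadjusted p of 0.0095, 0.0187 and 0.0643 and adjusted p of 0.615 to 0.807.

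The other 14 low genes overlapped between the genotypes. Col19a1, Col28a1 and Col7a1, the last the collagen of skin anchoring fibrils, reached 22 to 168 reads per library. Col9a1, Col9a2 and Col9a3, the chains of cartilage type IX, had 0 to 51 reads, the highest for Col9a3 in EC-Jag1KO replicate 2. Col17a1 and Col25a1 had 2 to 14 reads, Col6a4 0 to 11, and Col26a1 2 reads in wild-type replicate 3 and none elsewhere. A count of 0 allows up to 3 reads, so these genes are not shown to be silent. Of 6 mesothelial markers all 6 lay higher on average in EC-Jag1KO, with sums of 1.31 to 2.76 FPKM against 0.258 to 0.505 FPKM. These levels are near the floor. Upk1b was detected in EC-Jag1KO replicate 1 alone (0.103 FPKM) and Muc16 in EC-Jag1KO replicate 2 alone (0.389 FPKM). Krt19, the highest of them, stood at 0.202 to 0.395 FPKM against 0.551 to 1.56 FPKM. The part of mesothelial cells in the low collagen genes was not tested.

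Genes whose products fold, modify, process, crosslink, bind or degrade collagen were counted in the same fit. Of 54 such genes 43 were tested, 0 passed the adjusted threshold, 13 lay higher and 30 lower, and the median log2 fold change was -0.090. Before adjustment 5 (11.6%) had p under 0.05, against 7.71% of all genes. Hydroxylation enzymes and their partners lay lower in 10 of 11 tested genes (median -0.14) and chaperones and export genes in 8 of 9 (median -0.029), none with an unadjusted p under 0.05 in limma. Of 5 lysyl oxidase genes, which start the crosslinks of fibrils, 4 lay higher (median 0.13).

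The 4 pathway genes of smallest p acted at different steps. Pcolce, which enhances removal of the C-propeptide of fibrillar procollagens, stood at 89.3, 76.4 and 72.4 FPKM in wild-type and at 57.1, 60.9 and 52.5 FPKM in EC-Jag1KO libraries. The groups were well apart, with a log2 fold change of -0.47 (-0.74 to -0.20) and a limma adjusted p of 0.402. Adamts2, which removes the N-propeptide, stood at 39.0 to 47.0 FPKM against 57.3 to 67.0 FPKM, a log2 fold change of 0.46 (0.19 to 0.73). Ctsk, a collagen-cleaving cathepsin, stood at 22.1 to 26.5 FPKM against 32.5 to 37.2 FPKM, a log2 fold change of 0.47 (0.22 to 0.72). Both had a limma adjusted p of 0.402. Loxl2, a lysyl oxidase-like enzyme active on type IV collagen, stood at 4.88, 6.80 and 3.90 FPKM against 7.12, 7.16 and 10.3 FPKM. Its log2 fold change was 0.58 (0.099 to 1.06), with a limma adjusted p of 0.583. None of the 4 overlapped between the genotypes, but they were picked for their small p. Among all 43 tested pathway genes the groups did not overlap in 8 (18.6%), against 13.6% of all genes.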

How the data were processed

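Total RNA of mouse aorta was extracted on spin columns, per the labels' protocols. The authors deposited FPKM values for 35275 genes in 1 table, with gene length and coordinates per the file headers. The build is mm10, and the submitters' processing notes list the tools STAR, HTSeq and edgeR with no role or version. Nothing states the strand setting, annotation release or filters, so it is not known whether reads of overlapping genes were shared or left out. Of 44 collagen genes, 41 have the same coordinates in GENCODE M21. Value times gene length gave whole reads within 0.05 for 211650 of 211650 values (100%). The limit that a count of 0 allows covers counting error only, and the limma intervals cover the spread between libraries. Chi-square per degree of freedom between libraries was 24.4 to 73.7, so no library was entered again under another name.

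Genes averaging 1 FPKM or more were tested as log2(FPKM + 1) by limma (version 3.58.1, R 4.3.3), genotype alone in the model and the variance moderated along intensity, two-sided, Benjamini-Hochberg adjusted over all 12165 genes at 0.05. The fit was run on simulated data with known changes and noise drawn independently for each gene and library. That checks the code and does not cover deviations that genes of a library share. Ratios used exact permutation tests in scipy 1.17.1, and plots matplotlib 3.10.9. Members, classes, lists and alternatives were chosen with earlier results of these data known. Genes named with values in every library were those with a mean of at least 50 FPKM, those with an unadjusted p under 0.05, the 2 of smallest p in each class and the 4 of smallest p in the pathway list; other genes given library by library (Col8a1, Col22a1, Col13a1 and Col6a5) were chosen after their values were seen. All 54 pathway symbols were matched, 4 through an older symbol. Promoters are from RefSeq on GRCm38.p6, matched for 35 genes. Alternatives covered the pseudocount, filter, scaling, trend, weights, replicate block, sex by Xist, voom on recovered reads and libraries left out.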

Additional observations from a re-analysis of the deposited data

How the results depend on the processing

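No collagen gene was called under any alternative run except array weights. These called 3 collagen genes (Col8a2, Col5a3 and Col18a1), 14 pathway genes and 1647 genes in all, in a fit that stopped before its tolerance, gave EC-Jag1KO replicate 1 a weight of 14.7 and gave the others 0.259 to 1.61. Over all genes, sex as a covariate called 1, leaving out both Xist-high libraries called 2, and leaving out each library in turn called 0 to 4, the 4 without EC-Jag1KO replicate 1. The cause was not tested. The log2 fold change of Col4a5 (0.013) was -0.043 with array weights, -0.058 without the Xist-high libraries and -0.037 to 0.052 with single libraries left out, below 0 when either Xist-high library was left out (-0.037 and -0.0072). That of Col23a1 was -0.11 with array weights and -0.011 without the Xist-high libraries, and that of Col5a2 was -0.021 without them. Of collagen genes lying slightly lower, Col4a4 ran from -0.13 to 0.12 with single libraries left out, Col11a2 was 0.053 without both Xist-high libraries and 0.0048 without wild-type replicate 3, Col16a1 was 0.010 without EC-Jag1KO replicate 1, and Col20a1 was 0.024 without EC-Jag1KO replicate 3. The other tested collagen genes kept their direction. With the replicate number as a block, 0 collagen genes and 0 genes in all were called, and 842 genes had an unadjusted p under 0.05. Same-numbered libraries had correlations of deviations of 0.055, 0.051 and -0.050, which do not show a pairing by number. With 3 libraries per genotype these values cannot exclude one, and replicate 3 is the Xist-high library in both genotypes. The edgeR test on recovered reads was not run, and limma voom was run on those reads instead. Depth limits the 17 genes under 1 FPKM, of which 10 had under 3 reads in some library.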
